A study of Caenorhabditis elegans with 83 samples.

Results

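The 10 genes described here are switch genes of Caenorhabditis elegans sex determination. They were taken by sequence name as her-1 (ZK287.8), xol-1 (C18A11.5), tra-1 (Y47D3A.6), tra-2 (C15F1.3), tra-3 (LLC1.1), fem-1 (F35D6.1), fem-2 (T19C3.8), fem-3 (C01F6.4), fox-1 (T07D1.4) and sex-1 (F44A6.2). All 10 had a row among the 18128 genes of the RNA table for SMC-3 depletion. Of these, 9 had a row among the 18308 genes of the RNA table for WAPL-1 depletion, where xol-1 was not listed. The gene her-1 lies on chromosome V, xol-1, fox-1 and sex-1 are X-linked, and the other 6 lie on chromosomes II, III and IV.

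In the worm, the number of X chromosomes relative to autosomes sets the state of xol-1, and the state of xol-1 sets that of her-1. SEX-1, a nuclear receptor, and FOX-1, an RNA-binding protein, are X-linked signals that hold xol-1 down in animals with a pair of X chromosomes, and XOL-1 in turn opposes the SDC proteins. The SDC proteins repress her-1 and bring the dosage compensation complex to the hermaphrodite X, where the histone mark H4K20me1 becomes enriched. HER-1 is a secreted protein that blocks the receptor TRA-2. FEM-1, FEM-2 and FEM-3 act with a ubiquitin ligase to remove TRA-1, the terminal transcription factor, so active TRA-2 leads to female development and active FEM proteins to male development.

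The worms were whole L2/L3 larvae, grown for 24 h at 22 °C, and proteins were depleted through degrons with auxin, at 1 mM where the labels state it. They do so for the RNA, for the HW04 libraries with auxin and for part of the JK06 ChIP, and not for the CA1200 and JK05 ChIP libraries. Strain CA1200 with auxin was the control, strain JK05 with auxin was used to deplete SMC-3, a core subunit of the cohesin ring, and strain JK06 with auxin was used to deplete WAPL-1, which releases cohesin from DNA. Strain HW04 was collected both without and with auxin, and the sources used here name neither its degron target nor the promoter that drives the auxin receptor in any strain. RNA was taken from 2 libraries per strain after 4 h on auxin, and chromatin immunoprecipitation (ChIP) was done after 1 h. The sex of the larvae is not given, and in whole worms fewer cells of a type and less RNA per cell cannot be told apart.

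ChIP peaks of SMC-3, of the cohesin loader subunit PQN-85 and of H4K20me1 were read from 21 lists. Strains CA1200, JK05 and JK06 each had 1 set combined over replicates for SMC-3 and for PQN-85, and HW04 had 12 lists of single libraries. The SMC-3 sets held 6290 peaks in control, 361 in SMC-3 depletion and 6107 in WAPL-1 depletion, and the PQN-85 sets held 5385, 5018 and 6713. All 4 SMC-3 lists of HW04 carry peak names that state the auxin condition opposite to their labels, so HW04 results for SMC-3 follow the labels and change sides if the peak names hold. A gene was counted as having a peak where at least 1 bp of a peak fell in its span or in the 1000 bp upstream of its start.

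The RNA of her-1 rose in SMC-3 depletion. In the authors' deposited table its log2 fold change over CA1200 was 3.44 ± 0.92 (standard error), with a DESeq2 adjusted p of 0.031. The 95% interval from that standard error in the authors' deposited table ran from 1.64 to 5.25 on the log2 scale, which is 3.12-fold to 38.0-fold. The mean normalized count of her-1 over both strains was 18.4 in the authors' deposited table. With 2 libraries per strain, that mean and fold in the authors' deposited table correspond to about 3.09 normalized counts in control and 33.6 in SMC-3 depletion. Counts of single libraries are not part of the tables used, so whether the 2 strains overlapped for her-1 could not be seen.

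Genes called higher at an adjusted p under 0.05 made up 0.222% of the 15316 genes with an adjusted p in the authors' deposited table of SMC-3 depletion, genes called lower 0.464%, and both together 0.686%. Of the 10 sex determination genes, 1 was called, her-1, and it was called higher. By p-value her-1 stood at place 90 of those 15316 genes in the authors' deposited table. By fold change it was the 7th of the 34 genes called higher. Few of the called genes were counted as thinly, since 3 of all 105 had a lower mean normalized count, not divided by gene length, than her-1. Among the 1541 genes with a mean normalized count from 10 to 30, 4 were called in the authors' deposited table, 3 of them higher.

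In WAPL-1 depletion the authors' deposited table listed her-1 at a log2 fold change of 1.22 ± 1.44, with an adjusted p of 1.00. The 95% interval from that standard error in the authors' deposited table ran from −1.60 to 4.03 on the log2 scale and includes both 0 and the SMC-3 depletion estimate of 3.44. Its mean normalized count there was 5.63 in the authors' deposited table, which corresponds to about 3.39 in control and 7.86 in WAPL-1 depletion. Both comparisons share the control libraries, and the difference between the 2 estimates was not tested. No gene of the series was called in either direction in the WAPL-1 table (0.0%), where 73 of 18308 genes (0.399%) had an unadjusted p under 0.05. For SMC-3 depletion 1056 of 18128 genes (5.83%) did.

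The gene xol-1, upstream of her-1, was counted too thinly for a comparison. Its mean normalized count was 1.24 in the authors' deposited table of SMC-3 depletion, where its log2 fold change was 3.78 ± 3.14 and its unadjusted p 0.228, with no adjusted p given. No fold is read from it at that count.

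The X-linked signals that act on xol-1 were counted more deeply and neither passed the test. For fox-1 the authors' deposited tables gave log2 fold changes of 0.10 ± 0.29 in SMC-3 depletion and −0.12 ± 0.42 in WAPL-1 depletion, at mean normalized counts of 759 and 804. For sex-1 the authors' deposited tables gave 0.08 ± 0.42 and 0.11 ± 0.58, at mean normalized counts of 95.6 and 110.

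Downstream of her-1, none of the 6 genes passed the test in either depletion. For tra-2, the receptor that HER-1 blocks, the authors' deposited tables gave log2 fold changes of 0.27 ± 0.27 in SMC-3 depletion and 0.01 ± 0.40 in WAPL-1 depletion. For tra-3, a calpain protease that cleaves TRA-2, the authors' deposited tables gave 0.03 ± 0.29 and −0.20 ± 0.45. Each of these estimates was of about the size of its standard error or smaller.

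The 3 fem genes were estimated near 0 in both depletions. For fem-1, an ankyrin repeat protein, the authors' deposited tables gave log2 fold changes of 0.19 ± 0.27 and 0.06 ± 0.40. For fem-2, a protein phosphatase, the authors' deposited tables gave −0.05 ± 0.27 and 0.18 ± 0.40. For fem-3, the authors' deposited tables gave −0.09 ± 0.48 and −0.27 ± 0.57, at mean normalized counts of 57.8 and 62.2. The thin counts of fem-3 went with standard errors above those of fem-1 and fem-2.

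For tra-1, the transcription factor at the end of the pathway, the authors' deposited tables gave log2 fold changes of −0.24 ± 0.28 and −0.52 ± 0.54, at mean normalized counts of 3104 and 3251. Over the 8 genes other than her-1 and xol-1, the standard errors ran from 0.27 to 0.48 in the authors' deposited table of SMC-3 depletion and from 0.40 to 0.58 in that for WAPL-1 depletion. The median log2 fold change of the 10 genes was 0.09 in the authors' deposited table of SMC-3 depletion, beside −0.01 for all its genes. In the authors' deposited table of WAPL-1 depletion the median of the 9 listed genes was 0.01, beside 0.05 for all genes.

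**Figure D1:**
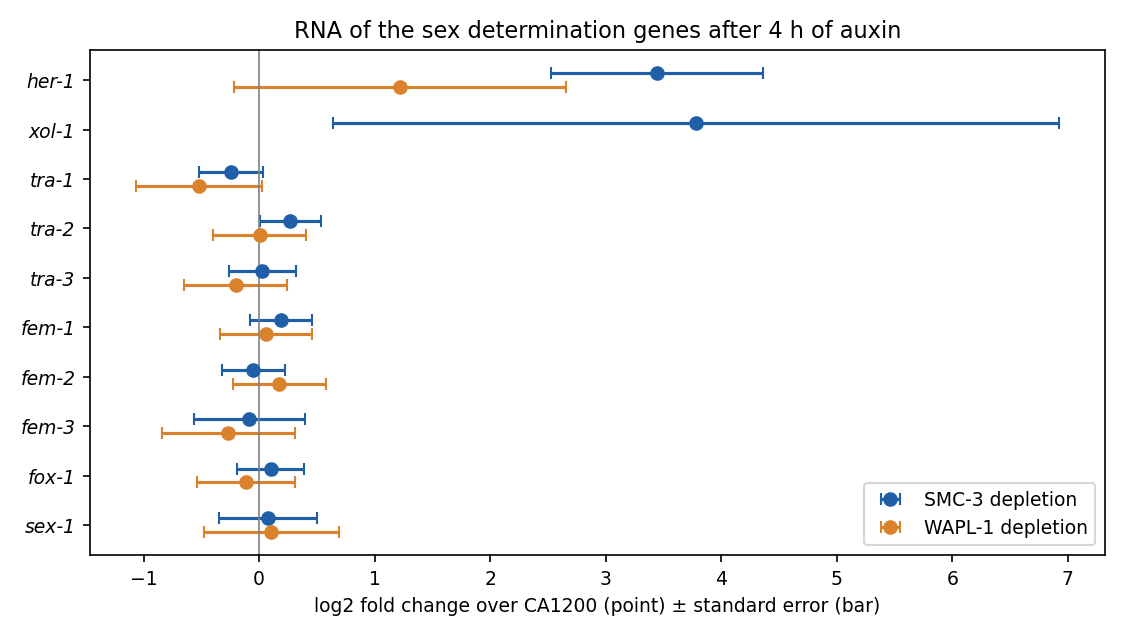
Log2 fold change of each sex determination gene over CA1200 (horizontal axis) after 4 h of auxin, from the authors' deposited tables. Points are the estimates and bars their standard errors, in blue for SMC-3 depletion and in orange for WAPL-1 depletion, where xol-1 has no row. The estimate for her-1 in SMC-3 depletion, 3.44, lies far from 0 relative to its bar, xol-1 has the widest bar, and the other 8 genes lie near 0.

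A wider list of 25 sex determination genes, chosen with results of these data known, held 23 genes with a row in each table. None was called in either direction in either depletion, and 0 of them had an unadjusted p under 0.05 in either table. With 0.686% of all genes called and 5.83% under that unadjusted p in SMC-3 depletion, and 0.0% and 0.399% in WAPL-1 depletion, so low a count is near that of all genes. The median log2 fold change of the 23 was −0.21 in the authors' deposited table of SMC-3 depletion and −0.06 in that for WAPL-1 depletion.

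Of the regulators that act directly on her-1 and xol-1, sdc-1, sdc-2, sdc-3 and ceh-39 were among those not called. No value is given here for sea-1, which is also on that list. For sdc-2, the SDC gene that targets the complex to the X and to her-1, the authors' deposited tables gave log2 fold changes of −0.32 ± 0.29 in SMC-3 depletion and 0.03 ± 0.43 in WAPL-1 depletion. For sdc-1 the authors' deposited tables gave 0.25 ± 0.32 and −0.14 ± 0.45, and for sdc-3 they gave −0.03 ± 0.31 and −0.02 ± 0.46. For ceh-39, another X signal that represses xol-1, the authors' deposited tables gave 0.08 ± 0.42 and 0.19 ± 0.54.

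Genes that TRA-1 controls were not called either. For mab-3, which acts in the male tail and gut, the authors' deposited tables gave log2 fold changes of −1.11 ± 0.83 and −0.91 ± 0.90. For ceh-30, which protects male-specific neurons from cell death, they gave −1.14 ± 0.78 and −0.31 ± 0.79 in the authors' deposited tables. For the cell death activator egl-1 the authors' deposited tables gave 0.38 ± 0.80 and 0.34 ± 1.1. For dmd-3, which shapes the male tail tip, they gave 0.92 ± 1.02 and −0.47 ± 1.28 in the authors' deposited tables. The germline genes fog-1 and fog-3, which are needed for sperm fate, were at −0.28 ± 0.34 and −0.61 ± 0.47 in the authors' deposited table of SMC-3 depletion, and at 0.08 ± 0.44 and −0.15 ± 0.53 in that for WAPL-1 depletion. Standard errors were 0.78 or more for the first 4 of these genes, so a moderate change in them was not detectable.

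Markers of male or adult tissue were read beside her-1. All 9 male nervous system and tail genes, among them lov-1 and pkd-2, had rows and 0 were called in either depletion. Their summed normalized count, from the authors' deposited tables, was 180 in control and 196 in SMC-3 depletion, and 206 in control and 363 in WAPL-1 depletion. The latter difference came mostly from asic-2, with a log2 fold change of 1.01 ± 0.61, and cwp-4, with 0.93 ± 0.56, in the authors' deposited table, neither of them called. The 9 genes did not move together in WAPL-1 depletion, where 5 had a positive and 4 a negative log2 fold change, the lowest −2.22. There 6 of the 9 had a mean normalized count under 10. Of 7 sperm genes 3 had rows, while the 4 major sperm protein genes msp-3, msp-10, msp-19 and msp-142 had none. The summed normalized count of the 3, from the authors' deposited tables, was 36.7 in control and 23.6 in SMC-3 depletion, and 42.0 in control and 41.9 in WAPL-1 depletion. Of 5 oocyte and adult hermaphrodite genes 4 had rows, all but the yolk protein gene vit-5, with sums from the authors' deposited tables of 184 in control and 123 in SMC-3 depletion, and of 210 and 200 for WAPL-1 depletion. The 3 somatic gonad genes summed to 285 and 196, and to 325 and 285, in the authors' deposited tables. None of these genes was called, and their part in the her-1 result was not tested.

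The genes around her-1 did not pass the test. On its upstream side the 3 genes with the nearest starts were ZK287.7, ztf-9 and rbx-1, 4230, 4969 and 6513 bp away, and the authors' deposited table of SMC-3 depletion gave them log2 fold changes of −0.25 ± 0.39, 0.19 ± 0.40 and 0.05 ± 0.36. On its downstream side xbx-6, tag-120 and F40F9.10 start 8226, 12685 and 16503 bp away, and the authors' deposited table gave them −0.03 ± 0.31, 0.53 ± 0.47 and 0.49 ± 0.37. The called genes whose pair of log2 fold changes lay closest to that of her-1 were ZC513.3, swt-3 and Y39H10B.3, at distances of 0.564, 1.12 and 1.26 log2 units over the 2 comparisons. The authors' deposited tables gave ZC513.3 2.98 ± 0.70 and 1.54 ± 1.19, swt-3, a sugar transporter gene, 3.88 ± 0.27 and 0.18 ± 0.48, and Y39H10B.3 2.25 ± 0.53 and 1.61 ± 1.14. These 3 were picked among the genes called in SMC-3 depletion, so that call is not a result.

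No peak of SMC-3, PQN-85 or H4K20me1 fell in the her-1 window in any of the 21 lists. The nearest SMC-3 peak in control lay past its 3′ end, at V:9704185-9704837, which is 2658 bp beyond the her-1 span (V:9697104-9701527, plus strand). This site was chosen after its values were seen. It overlaps no gene span of the RNA tables, and its midpoint lies 819 bp upstream of the start of xbx-6. It was present in 5 of the 7 SMC-3 lists of the 3 conditions and HW04, and in 6 of the 7 PQN-85 lists.

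At that site the authors gave the control SMC-3 peak a fold enrichment of 2.23 over input, at place 3209 of 6290 by score. In SMC-3 depletion no SMC-3 peak was listed there, and the nearest one lay 149860 bp from her-1. In WAPL-1 depletion the SMC-3 peak there stood at place 4392 of 6107. PQN-85 peaks were listed at the site in all 3 conditions, at places 3156 of 5385 in control, 2609 of 5018 in SMC-3 depletion and 2045 of 6713 in WAPL-1 depletion. The HW04 list of PQN-85 without auxin, replicate 2, the longest of the HW04 lists with 12367 peaks, held a further peak 369 bp beyond the her-1 end. The nearest H4K20me1 peak lay between 87265 and 352983 bp from her-1 in the 4 HW04 libraries.

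**Figure D2:**
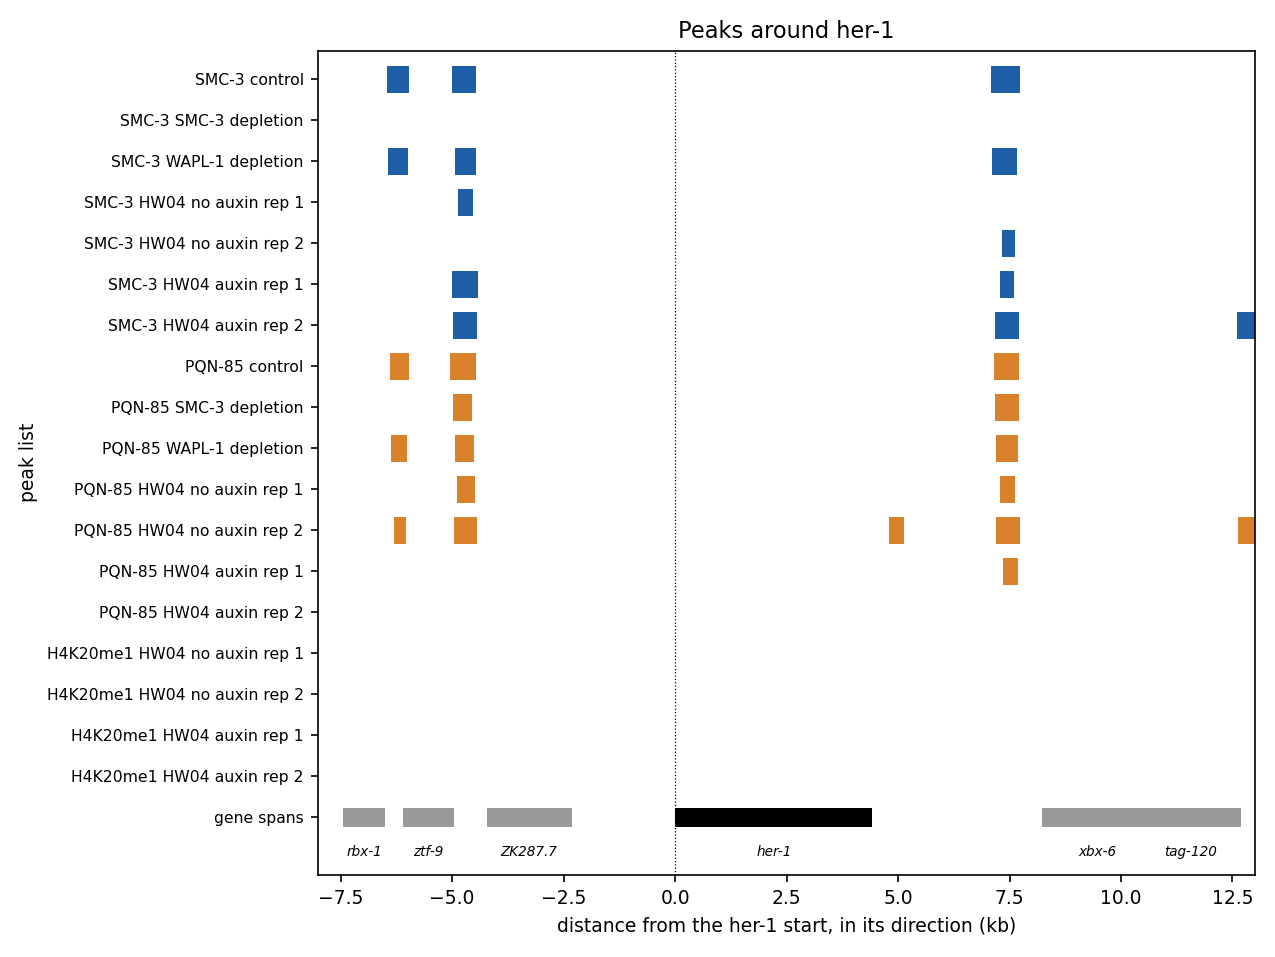
Peaks around her-1, one row for each list of the 3 conditions and of HW04 (blue SMC-3, orange PQN-85, green H4K20me1), with gene spans in the lowest row. The horizontal axis is the distance from the her-1 start in its direction of transcription, in kb. No bar lies over her-1 or the 1000 bp upstream of its start, and bars near xbx-6 recur in most SMC-3 and PQN-85 rows.

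The window of xol-1 held no PQN-85 peak in any list, and an SMC-3 peak in the replicate 3 list of WAPL-1 depletion alone, at place 6356 of 8876 by score. Further upstream lay a site at X:8035803-8036991, 4286 bp from the xol-1 span (X:8041277-8044360, plus strand), also chosen after its values were seen. It overlaps no gene span of the RNA tables, and of all gene starts that of xol-1 is the nearest, 4880 bp from its midpoint. All 7 SMC-3, all 7 PQN-85 and all 4 H4K20me1 lists held a peak at this site.

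This upstream site ranked high by score in most lists. Among SMC-3 sets it stood at place 79 of 6290 in control, 53 of 361 in SMC-3 depletion and 1459 of 6107 in WAPL-1 depletion. The single SMC-3 lists of WAPL-1 depletion placed it at 48 of 8876 and 33 of 6782, so the combined set and the single lists of that condition differ at this site. Among PQN-85 sets it stood at place 33 of 5385 in control, 54 of 5018 in SMC-3 depletion and 52 of 6713 in WAPL-1 depletion. In HW04 the PQN-85 lists placed it at 20 and 47 without auxin and at 28 and 27 with auxin.

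Of the 10 genes, tra-1 carried peaks in the most lists. Its span (III:11171992-11195108, minus strand) covers 23117 bp and is the widest of the 10. Genes spanning at least 10 kb had a control SMC-3 peak in 48.8% of cases and a control PQN-85 peak in 46.3%. A site inside the gene, at III:11185113-11186168, had its midpoint 9468 bp from the tra-1 start and held a peak in 6 of 7 SMC-3 and 6 of 7 PQN-85 lists. The summits there lay between 9412 and 9536 bp from the start in the lists of both proteins.

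At this inner site the control SMC-3 peak had a fold enrichment of 4.94 and stood at place 202 of 6290 by score. In SMC-3 depletion no SMC-3 peak was listed in tra-1 at all. In WAPL-1 depletion the SMC-3 peak stood at place 2642 of 6107, and in the single lists of that condition at 4343 of 8876 and 2292 of 6782. The PQN-85 peak stood at place 316 of 5385 in control, 852 of 5018 in SMC-3 depletion and 893 of 6713 in WAPL-1 depletion, so PQN-85 was listed at the site where SMC-3 was not. Of control PQN-85 peaks with a score of at least 200, like this one, 92.3% were overlapped by a PQN-85 peak in SMC-3 depletion, against 38.1% of those with a lower score.

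Apart from the inner site, control SMC-3 peaks of tra-1 lay both nearer the start and further inside the gene. The broadest ran over III:11189897-11192941, and the one furthest inside had its summit 12241 bp from the start. Covered bases were 24.7% of the tra-1 window in control, 0.0% in SMC-3 depletion and 6.19% in WAPL-1 depletion. These sets have 1 value per condition and no replicate error, and peak widths depend on how much was called in each.

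**Figure D3:**
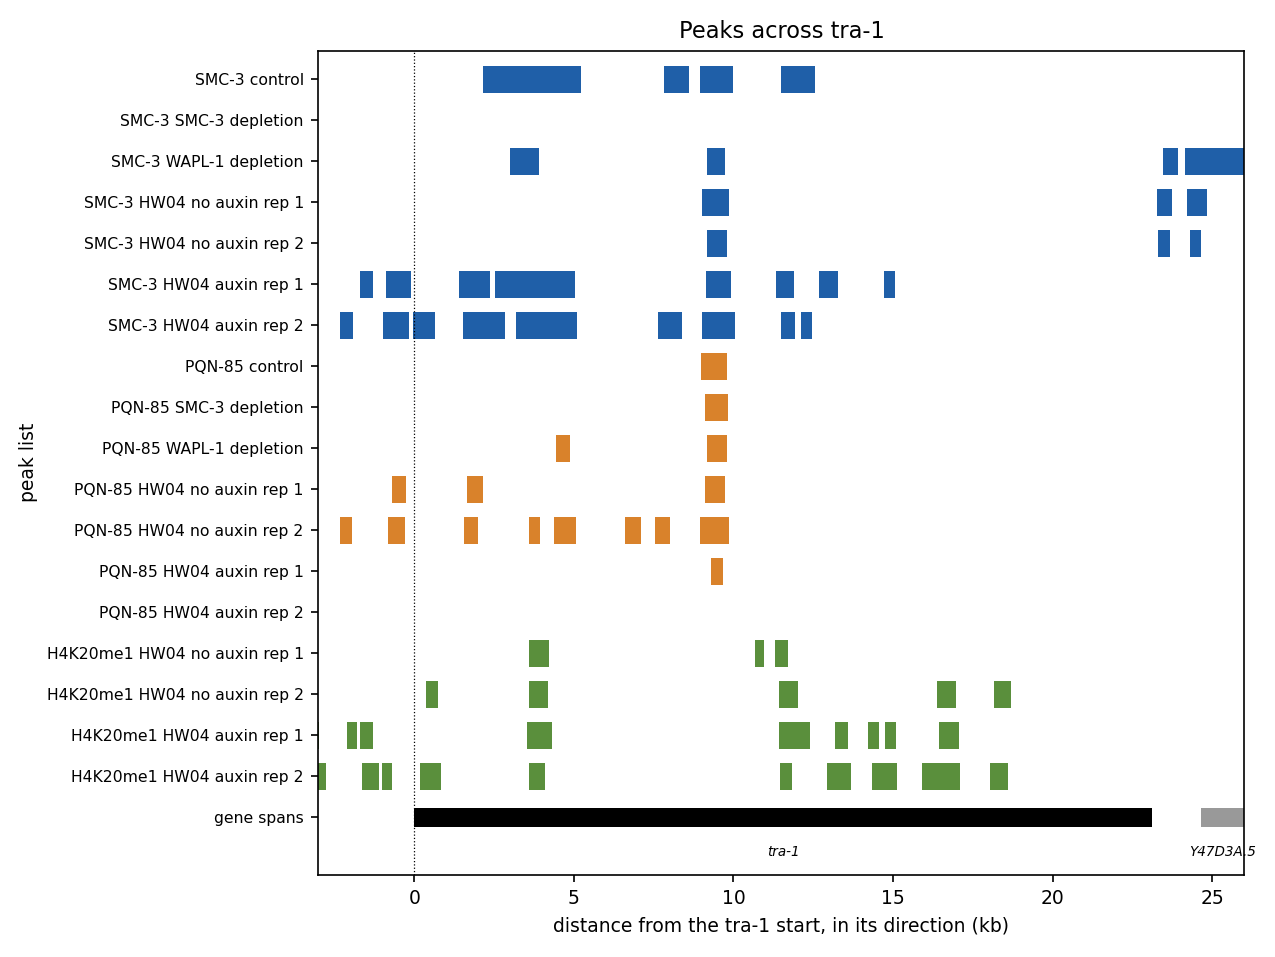
Peaks across tra-1, one row for each list (blue SMC-3, orange PQN-85, green H4K20me1), with gene spans in the lowest row and distance from the tra-1 start in kb on the horizontal axis. The site about 9468 bp inside the gene recurs in 6 SMC-3 and 6 PQN-85 rows, while peaks nearer the start are listed in fewer rows.

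Across the 10 genes, SMC-3 peaks were listed at 4 genes in control (tra-1, tra-2, tra-3 and fem-1), beside 26.3% of all genes. In SMC-3 depletion 0 of the 10 had one, beside 1.46% of all genes. In WAPL-1 depletion 6 had one (tra-1, tra-2, fem-1, fem-2, fem-3 and sex-1), beside 30.4%. The count for control rests partly on tra-3, whose peak overlapped the window by 3 bp.

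Of the genes with a control SMC-3 peak anywhere in the genome, 85.9% had one in WAPL-1 depletion, and of those with none 10.6% did. Of the 4 sex determination genes with a control peak, tra-3 had none in WAPL-1 depletion, while fem-2, fem-3 and sex-1 had one there and none in control. At fem-2 the SMC-3 peak in WAPL-1 depletion had its summit 136 bp upstream of the start and stood at place 1246 of 6107. At fem-1 the peak at the start stood at place 5753 of 6290 in control and 2244 of 6107 in WAPL-1 depletion. At tra-2 a peak 7954 bp inside the gene in control was listed in WAPL-1 depletion with 3 further peaks. The single lists of WAPL-1 depletion held SMC-3 peaks at 8 genes in replicate 3, beside 36.7% of all genes, and at 6 in replicate 4, beside 30.1%, and both lists included fem-1, fem-2, fem-3, sex-1, tra-1 and tra-2.

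PQN-85 peaks were listed at 5 genes in control (tra-1, tra-2, fem-2, fem-3 and fox-1), beside 22.0% of all genes. In SMC-3 depletion only tra-1 of the 10 had one, beside 21.1% of all genes. In WAPL-1 depletion 5 had one (tra-1, tra-2, fem-2, fem-3 and sex-1), beside 25.7%, and in the list called on averaged libraries 6, beside 37.5%. Genome-wide 80.1% of genes with a control PQN-85 peak had one in SMC-3 depletion. The 4 genes with a control PQN-85 peak and none in SMC-3 depletion had control peaks with scores from 69 at fox-1 to 159 at tra-2, while that of tra-1 scored 1099. Those scores lie under 200, the class of which 38.1% were overlapped. The cut of 200 falls between the scores of these 4 genes and that of tra-1, so it separates them by construction. Whether peak score accounts for the difference was not tested.

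**Figure D4:**
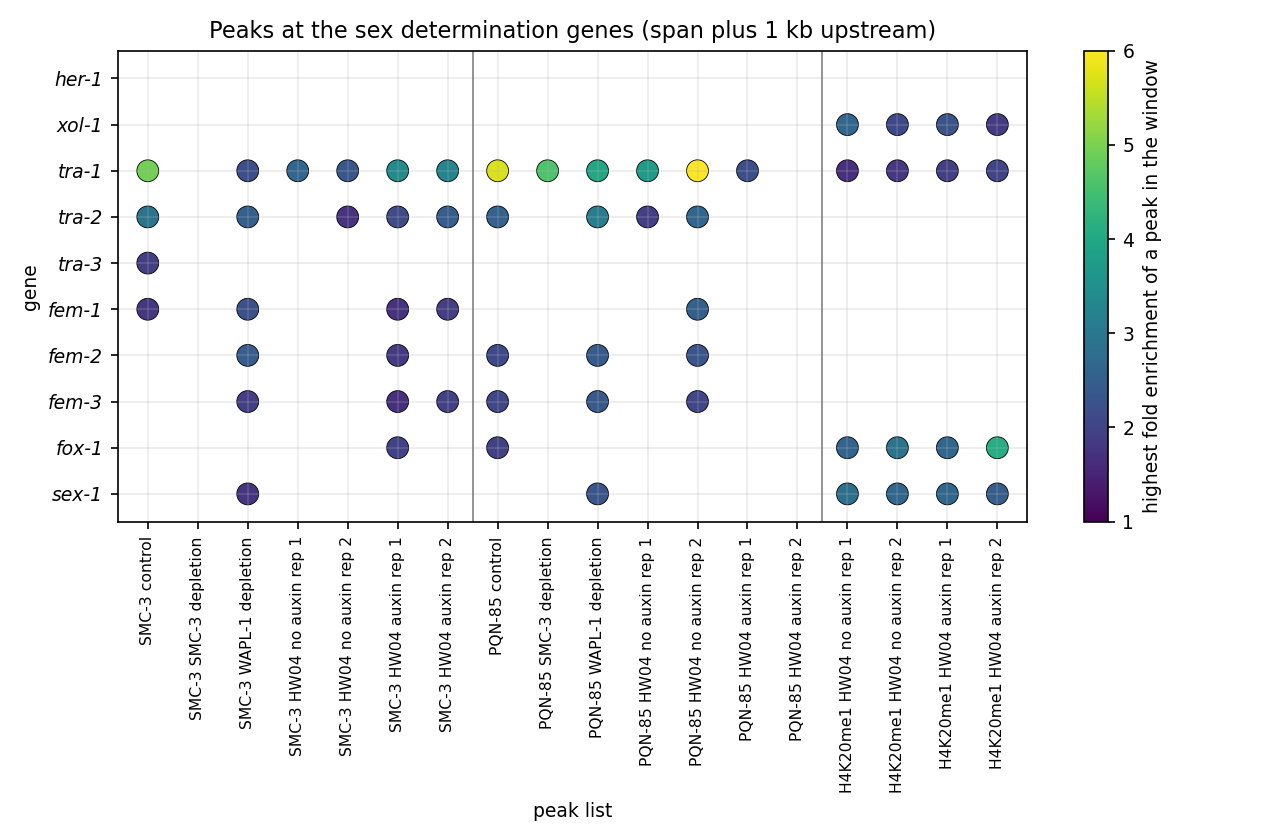
Peaks at each sex determination gene (rows) in each list (columns), with vertical lines between SMC-3, PQN-85 and H4K20me1. A dot marks a gene with a peak in its span or 1 kb upstream, and its color gives the highest fold enrichment the authors listed there. The her-1 row holds no dot, the tra-1 row holds the most, and H4K20me1 dots lie in the xol-1, tra-1, fox-1 and sex-1 rows.

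In strain HW04, SMC-3 peaks covered more of the 10 gene windows in the libraries labelled auxin. Covered bases were 1.07% and 1.24% without auxin and 11.6% and 11.8% with auxin, so the groups did not overlap. The difference was 10.5 percentage points (1.15% ± 0.119 and 11.7% ± 0.117, SD, n = 2), with p = 0.33 in a two-sided exact permutation test, the smallest that 2 against 2 libraries can give. By the conditions in the peak names the same difference is −10.5, and with peaks of a score of at least 100 only it is 4.54 by label. By label, the SMC-3 lists without auxin held 4305 and 4091 peaks in all, and those with auxin 7457 and 8196. Whether the difference in coverage goes beyond that in peaks called was not tested, and no share of all genes is given for it. The 2 libraries labelled without auxin held SMC-3 peaks at 1 and 2 of the 10 genes, beside 20.0% and 19.2% of all genes, and those with auxin at 6 and 4, beside 27.6% and 30.7%. Much of the covered length lay in tra-1, at 3.47% and 2.57% of its window without auxin and 27.1% and 30.3% with auxin. By the peak names these list lengths, gene counts and tra-1 shares belong to the opposite conditions.

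PQN-85 went the other way by label. Covered bases of the 10 windows were 2.47% and 8.85% without auxin and 0.496% and 0.0% with auxin. The difference was −5.41 percentage points, with p = 0.33 in the same exact permutation test, and the libraries without auxin differed from each other by more than this. Without replicate 1 the difference was −8.85 points and without replicate 2 it was −1.97. They held PQN-85 peaks at 2 and 5 genes, beside 23.2% and 38.8% of all genes, and those with auxin at 1 and 0, beside 15.3% and 4.22%. The list with 0 was the shortest, with 1296 peaks in all, and the number of peaks called moves with each of these values.

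H4K20me1, the mark enriched on the hermaphrodite X, was listed at the 3 X-linked genes and at tra-1 in all 4 HW04 libraries, and at none of the other 6 genes. The shares of all genes with such a peak were 16.4% and 17.0% without auxin and 15.7% and 17.6% with auxin. Among X genes 75.6% had one in all 4 libraries, among autosomal genes 3.79%, and among autosomal genes of at least 10 kb, the size class of tra-1, 21.3%. Covered bases of the fox-1 window were 93.1% and 93.9% without auxin and 93.2% and 93.8% with auxin. At sex-1 they were 97.9% and 93.9% without auxin and 92.5% and 97.3% with auxin. Both genes lay above the median X gene, which was covered over 77.7% to 81.7% of its window.

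Coverage of xol-1 by H4K20me1 was lower than that of the other X-linked pair, at 48.5% and 35.9% without auxin and 42.3% and 51.8% with auxin. The groups overlapped for xol-1, fox-1 and sex-1. At tra-1 covered bases were 5.49% and 11.2% without auxin and 14.5% and 21.4% with auxin, so the groups did not overlap. Of the 3577 genes with H4K20me1 coverage in at least 1 of the 4 libraries, 29.8% had groups that did not overlap, and 13.6% were higher with auxin in this way, so 1 of the 4 marked genes is near the share of all genes. The tra-1 difference was 9.65 percentage points, with p = 0.33 in the two-sided exact permutation test, the smallest possible. Over all 10 windows the covered share was 18.2% and 19.1% without auxin and 20.3% and 23.3% with auxin, a difference of 3.16 points with p = 0.33 in the exact permutation test. The H4K20me1 peaks of tra-1 scored 17 to 88, so with a score of at least 100 none was left and its coverage was 0.0% in all 4 libraries. With that filter the difference over the 10 windows turned to −2.57.

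**Figure D5:**
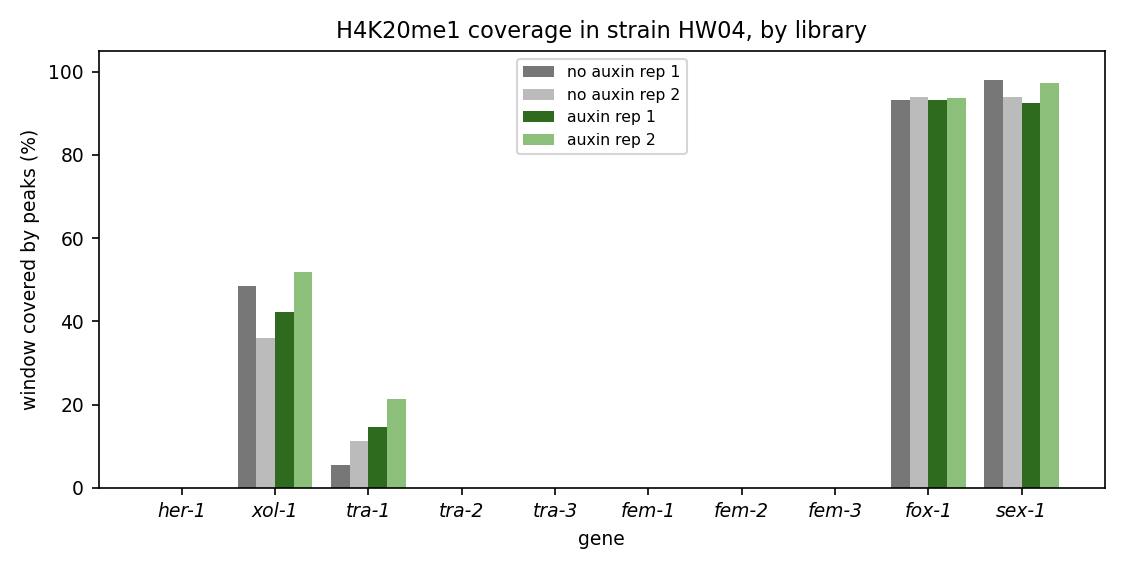
Percent of each gene window (span plus 1000 bp upstream) covered by H4K20me1 peaks in strain HW04, one bar per library, gray without auxin and green with auxin. The X-linked fox-1 and sex-1 are covered over more than 92.5% of their windows in all 4 libraries, xol-1 over 35.9% to 51.8%, tra-1 over 5.49% to 21.4%, and the other 6 genes not at all.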

How the data were processed

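The 10 genes, the gene lists and the tests were chosen with earlier results of these data known. Per the file headers, the deposited RNA tables give for each gene the mean normalized count over both strains (a signal scaled between libraries). They also give the authors' log2 fold change, its standard error, the Wald statistic (a score), the p-value and its adjusted form. The submitters' processing notes name DESeq2 1.30.0, HTSeq 0.13.5, HISAT2 2.2.1 and Cufflinks 2.2.1 for RNA. For ChIP they name MACS2 2.1.1, MACS3, deepTools 3.5.0, SAMtools 1.11 and Bowtie2 2.4.2. No counts per library were used, so depth is unknown and the precision is that of the standard errors. The sources used here do not say whether counting used strand, and tra-2 shares 4 bp with ceh-38 on the other strand. The authors' deposited peak lists hold each peak's score, its fold enrichment (a ratio of ChIP over input), its −log10 q and its summit position. The fold enrichments, scores and ranks are the authors' own values per peak and were used within a list only.

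Interval bounds (95%), group means from the mean count and fold with 2 libraries per strain, peak overlaps and covered bases were computed with Python 3.11.15, numpy 2.4.6, pandas 2.3.3 and scipy 1.17.1, and the overlap code was tested on simulated data. The control means of the 8 genes other than her-1 and xol-1, taken from the 2 tables, stood in a ratio of 1.14 (median over 13696 genes also 1.14). This is a scaling between tables, so sums are compared within a table only. For her-1 the ratio was 1.10, so its control means of 3.09 and 3.39 followed that scaling less closely. Adjusted p-values are the authors'. They were given for 15316 of 18128 genes in SMC-3 depletion and for all 18308 genes in WAPL-1 depletion. Gene names came from RefSeq, which matched 17777 of 18128 and 17941 of 18308 rows. Gene coordinates are those of the RNA tables, whose build no source used here names, and 1.41% of starts equal those of WBcel235, so no WBcel235 position was used. The labels state ce10 for 38 of 83 samples, including the combined SMC-3 sets, and peaks and genes were read on shared coordinates. Combined sets of strain JK06 were assigned by the library names in their peaks. The study's design text calls its replicates biological. Named genes were the 10 genes, the regulators and targets fixed by name, the 3 nearest starts on each side of her-1 and the 3 called genes closest to it in fold change. Hi-C and other antibodies were not analysed here, and 8 deposited files that repeat other columns were not used.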

Additional observations from a re-analysis of the deposited data

How the results depend on the processing

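Of 69 recomputed values, 60 were classed as holding. Counts among them stayed within 1.5 times, and the others kept their direction and side of any threshold, apart from a median near 0. That median, the log2 fold change of the listed sex determination genes in WAPL-1 depletion, was 0.01. Its sign turned in both recomputed settings. It was −0.06 once genes averaging fewer than 10 normalized counts were left out, and −0.04 after subtracting the all-gene median. Among these 60 the HW04 SMC-3 difference went from 10.5 to 4.54 percentage points with peaks of a score of at least 100 only. At an adjusted p under 0.01 the count of sex determination genes called in SMC-3 depletion was 0, against 1. Within 500 bp either side of the start, a window with less of the gene and less upstream sequence, SMC-3 peaks were at 1 gene in control, and PQN-85 peaks at 3 in control, 0 in SMC-3 depletion and 2 in WAPL-1 depletion. With the gene span alone 3 genes had a PQN-85 peak in control, and with peaks of a score of at least 100 only 2 had an SMC-3 peak in control. In HW04 the SMC-3 difference turned to −10.5 percentage points (exact permutation p = 0.33) by peak names, and the H4K20me1 difference to −2.57 (exact permutation p = 0.667) with a score of at least 100; the cause was not tested. Without 1 replicate the differences ran from 10.5 to 10.6 for SMC-3, from −8.85 to −1.97 for PQN-85 (the former without replicate 1, the latter without replicate 2) and from 2.12 to 4.20 for H4K20me1. With the replicate number as a block the differences were again 10.5, −5.41 and 3.16, with an exact p of 0.5 for each, the smallest possible. These differences could not have moved, since each condition has a single library per number, and they are counted among the 60. The labels tie no batch to the replicate numbers, so the libraries share a number only. For the RNA tables and combined sets no paired analysis was possible because they hold no single libraries. Thin counts limit her-1 and xol-1.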
